A study of Mus musculus with 12 samples.

Results

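The circadian clock genes Arntl (also named Bmal1), Npas2, Cry1, Per1, Per2, Per3, Ciart, Nr1d1, Nr1d2 and Dbp were followed in RNA-Seq libraries of mouse retina. They are 10 of the 50559 genes in the count table, chosen by symbol after the counts of APB5+Mino and APB5 retinas had shown a lower Ciart with minocycline, and all 10 passed the filter on low counts in each of the 5 comparisons below. The 12 libraries were from wild-type C57BL6/J mice at postnatal day 28, with 3 libraries in each of 4 groups. IgG mice received 30 µg of an isotype control antibody subcutaneously at day 1. APB5 mice received 30 µg of the rat antibody clone APB5 in its place, which blocks the mouse receptor PDGFRB and so keeps pericytes, the mural cells of capillaries, from settling on the growing vessels. IgG+Mino and APB5+Mino mice received in addition daily intraperitoneal minocycline, an antibiotic that dampens microglial activation, at 45 mg/kg from day 5 to day 27. Both agents acted on the whole animal and not on the retina alone. The animals lived under light and dark phases of equal length. The hour at which each retina was collected is not given in the sources used here, so a difference in clock phase and a difference in the hour of collection cannot be told apart in any comparison below.

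In the mammalian clock, ARNTL pairs with CLOCK or with NPAS2 and binds E-boxes to switch on the Per and Cry genes, whose proteins then return to the nucleus and repress that pair. The same pair switches on Nr1d1 and Nr1d2, which encode the repressors REV-ERBα and REV-ERBβ, and these hold down Arntl, Npas2 and Cry1. Arntl and Npas2 therefore peak roughly opposite to Nr1d1, Dbp and the Per genes, and Cry1 peaks later than the Per genes. DBP activates genes through D-boxes, and CIART, also called CHRONO, is a further repressor of the ARNTL pair. In the retina the clock runs in many cell types and sets daily rhythms of dopamine, of photoreceptor coupling and of visual sensitivity, and light also induces Per1 and Per2 directly through CREB.

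The promoters are shown for the 4 members in which one of the searched clock motifs was found, because the E-box and the D-box are the elements through which the members act on each other. Each sequence is the 250 bases before a transcription start, read 5′ to 3′ on the strand of the gene, from RefSeq on build GRCm38.p6. Capitals mark an E-box (CACGTG) or a D-box (TTATGTAA or TTATGCAA). The Ciart window is chr3:95882229-95882478 on the minus strand, the Cry1 window chr10:85185055-85185304 on the minus strand, the Per1 window chr11:69098699-69098948 on the plus strand at the first of 2 starts, and the Per3 window chr4:151044666-151044915 on the minus strand.
Ciart: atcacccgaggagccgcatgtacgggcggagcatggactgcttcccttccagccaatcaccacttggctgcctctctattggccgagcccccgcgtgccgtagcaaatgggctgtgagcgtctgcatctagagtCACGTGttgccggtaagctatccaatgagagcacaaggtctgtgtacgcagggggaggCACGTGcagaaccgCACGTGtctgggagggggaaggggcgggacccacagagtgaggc
Cry1: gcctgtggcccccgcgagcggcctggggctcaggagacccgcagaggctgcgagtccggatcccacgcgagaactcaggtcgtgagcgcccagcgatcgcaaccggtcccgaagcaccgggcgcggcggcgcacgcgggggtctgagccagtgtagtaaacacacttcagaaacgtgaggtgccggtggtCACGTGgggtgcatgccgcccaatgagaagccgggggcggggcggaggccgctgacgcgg
Per1: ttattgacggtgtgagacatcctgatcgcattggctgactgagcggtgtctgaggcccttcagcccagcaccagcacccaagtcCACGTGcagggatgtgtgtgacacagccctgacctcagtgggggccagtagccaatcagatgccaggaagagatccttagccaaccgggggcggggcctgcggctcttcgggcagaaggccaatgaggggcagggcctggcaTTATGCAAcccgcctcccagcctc
Per3: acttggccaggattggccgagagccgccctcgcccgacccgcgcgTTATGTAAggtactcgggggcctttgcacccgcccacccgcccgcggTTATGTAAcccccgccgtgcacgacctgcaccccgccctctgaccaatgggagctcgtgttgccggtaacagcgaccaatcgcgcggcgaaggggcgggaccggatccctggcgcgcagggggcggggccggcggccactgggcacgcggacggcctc

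Ciart held 3 E-boxes, beginning 116, 58 and 44 bases before its start, and Cry1 and Per1 held 1 each, beginning 60 and 166 bases before theirs. Per3 held 2 D-boxes, at 205 and 158 bases, and Per1 held 1, at 24 bases. The promoter table held 9 of the 10 members, with 11 starts, and Per2 was not matched. Searching both strands, E-boxes were thus found in 3 of 9 members and in 6.02% of all 32851 promoters of this length, and D-boxes in 2 of 9 members and in 1.5% of all. The ROR element (TAGGTCA or TGGGTCA), to which REV-ERB proteins bind, and the cyclic AMP response element (TGACGTCA) were in 0 of the 9 and in 5.38% and 1.55% of all promoters. These are matches of letters in a short window and do not show binding.

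Total counts ranged from 52740545 to 59411044 per library, with a median of 55962327, and a member had between 168 counts (Npas2) and 23573 counts (Per1) in a library. Levels are given as CPM, the count of a gene relative to the size of its library, with TMM scaling, and a comparison between genes as CPM per kilobase of the canonical transcript. By median over the 12 libraries, Nr1d1 and Dbp were the most abundant members at 91.9 and 88.7 CPM per kilobase, with ranges of 75.8 to 123 and 63.5 to 108 that overlapped. Per1 and Nr1d2 followed, without overlap of Per1 with Dbp, at 41.2 and 41.1, then Arntl at 26.4, Ciart at 24.4, Per3 at 18.7 and Cry1 at 18.0 CPM per kilobase. From Per1 down to Cry1, the ranges of each neighbouring pair overlapped. Per2 (3.39 to 6.81 CPM per kilobase) and Npas2 (0.684 to 1.29) stood below the others and did not overlap with any of them or with each other. Ciart varied most between its lowest and highest library, by 4.46-fold, and Per1 by 2.84-fold, while Cry1, Nr1d1, Per3, Dbp and Nr1d2 each varied by 1.6-fold to 1.74-fold.

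**Figure D1:**
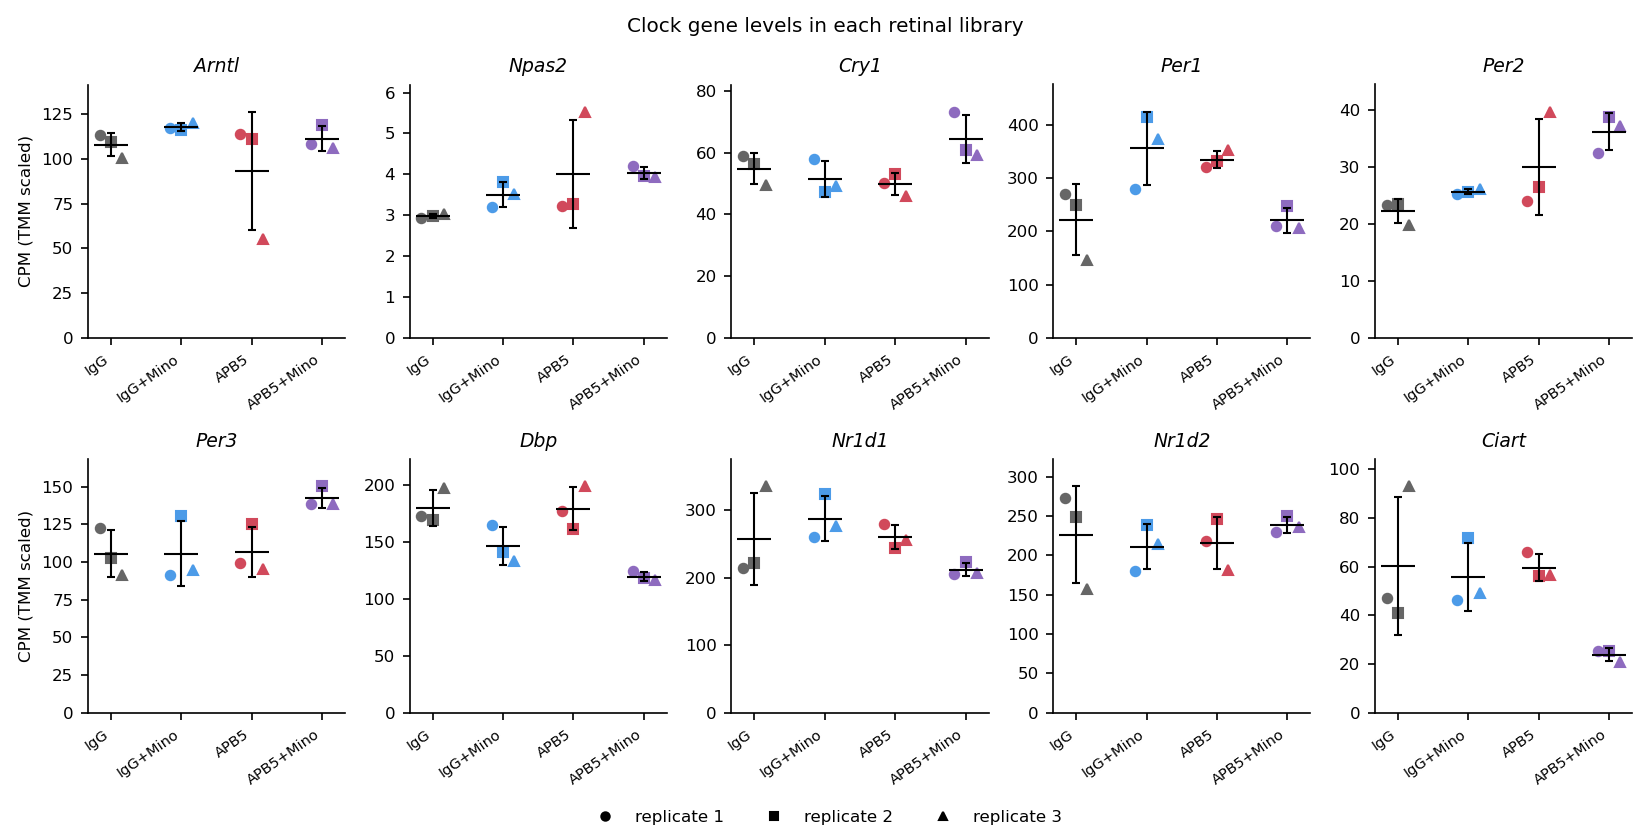
Level of each clock gene in CPM (vertical axes from 0, each on its own scale) in the 4 groups, with a symbol for each library and bars for mean ± SD (n = 3). Ciart lay at 20.9 to 25.5 CPM in the APB5+Mino libraries and at 41.1 CPM or more in the other 9, and Arntl of APB5 replicate 3 lay at 55.5 CPM where the other 11 libraries had 100.7 CPM or more.

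Some libraries stood apart from others of their group. APB5 replicate 3 scored 126.9 on the first principal component of all genes, where the other 11 libraries lay between −53.8 and 25.6. The 7 rod markers, all detected in all libraries, summed to 7285 CPM in it and to 20790 to 31040 CPM in the others, with Gnat1, the rod transducin subunit, the most abundant. The 10 microglia and macrophage markers, led by C1qa, summed to 398 CPM in it and to 15.5 to 59.5 CPM in the others. In the same library Arntl was low and Npas2 and Per2 were the highest of all 12. In bulk RNA, fewer cells of a type and less RNA per cell cannot be told apart. The IgG group also had a library apart, replicate 3, in the clock genes themselves. It had the highest Ciart and Nr1d1 and the lowest Per1, Per2 and Nr1d2 of the 12 libraries, beside 712 CPM of Egr1 where IgG replicates 1 and 2 had 91.1 and 99.7 CPM, and the highest rod marker sum of the 12.

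The libraries also differed in sex. Xist, the RNA of the inactive X chromosome, was counted 47210 times or more in 5 libraries, all of IgG and replicate 3 of APB5 and of APB5+Mino. The remaining 7 libraries had 38 counts or fewer. Sex and minocycline can therefore not be told apart between IgG+Mino and IgG. Within a group, high and low Xist occurred together only in APB5 and in APB5+Mino, each through replicate 3. Fits below with Xist as a covariate therefore rest largely on those libraries. What set APB5 replicate 3 apart enters such fits as well and cannot be told apart from sex in them. Every marker of rods, cones, bipolar cells, amacrine cells, ganglion cells and Müller glia had over 3 counts in all 12 libraries, so the label of retina held.

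The effect of minocycline in mice not given APB5 was read from IgG+Mino against IgG, which shares no library with the comparison by which the genes were chosen. A gene was called where its adjusted p was 0.05 or less and its log2 fold change 1 or more in size. By edgeR's quasi-likelihood test and by DESeq2, 0 members were called. Of all 20143 genes tested, 0.0298% were called by edgeR (0.0199% higher and 0.00993% lower), the same with and without the fold threshold. The 4 genes called higher were the Y-linked Ddx3y, Uty, Kdm5d and Eif2s3y, and Xist was 1 of the 2 called lower, so this share is mostly the difference in sex. Further, 2 members (Per1 and Dbp) had an unadjusted p under 0.05 in both tests, as 1686 genes had by edgeR and 1722 by DESeq2, which called 21. The libraries of the groups did not overlap for 5 members, 4 higher and 1 lower, where 14.4% of all genes did not (6.88% higher and 7.48% lower).

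Per1, a light-responsive member of the Period family, had 270.5, 249.6 and 146 CPM in the IgG libraries and 280.5, 415 and 373 CPM in the IgG+Mino libraries. Each IgG+Mino library was above each IgG library, and IgG replicate 3 lay well below the other IgG libraries. The log2 fold change was 0.69 (SE 0.23, edgeR adjusted p = 0.585), and 0.46 without IgG replicate 3. Dbp, the D-box activator, had 173, 169 and 198 CPM in IgG and 165, 141 and 133 CPM in IgG+Mino, lower in all 3 treated libraries, with a log2 fold change of −0.29 (SE 0.12, edgeR adjusted p = 0.585). Arntl, Npas2 and Per2 were higher in each IgG+Mino library by log2 fold changes of 0.14, 0.24 and 0.22, all short of the threshold. When Xist entered a fit of the 12 libraries as a covariate, Arntl became −0.37, Npas2 0.58 and Per2 0.55, none of them passing by edgeR. That covariate leans on replicate 3 of APB5, which stood apart in these genes, so the shift cannot be read as that of sex alone. Ciart had means of 60.5 ± 28.4 and 55.7 ± 13.9 CPM (SD, n = 3 each), Nr1d1 of 257 ± 67.8 and 287 ± 33.3 CPM, and both groups overlapped in each. Without IgG replicate 3, the log2 fold change of Ciart turned from −0.11 to 0.34 and that of Nr1d1 went from 0.17 to 0.41. The microglia and macrophage markers summed to 33.1, 41.7 and 59.5 CPM in IgG and 28.3, 31.8 and 29.5 CPM in IgG+Mino, lower in each IgG+Mino library. The 6 pericyte markers, led by Rgs5, summed to 93.2, 97.2 and 108 and 74.5, 82.0 and 84.2 CPM, also lower in each, and the 6 lens markers to 715, 100.5 and 46.8 and 33.9, 4.67 and 1881 CPM, without a common direction. Their part in these values was not tested.

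The effect of APB5 without minocycline was read from APB5 against IgG, whose APB5 libraries also enter the comparison that chose the genes. No member was called by edgeR, where 0.0% of the 20350 genes tested were, or by DESeq2, where 87 genes were. In simulated counts for this comparison edgeR recovered 17 of 200 changes of 2-fold, so 0 calls do not show that the members were unchanged. In both tests 1 member, Per1, had an unadjusted p under 0.05, as 1472 and 1731 genes had. Per1, Per2 and Npas2 were higher in every APB5 library than in every IgG library, where 15.7% of all genes did not overlap (7.83% higher and 7.86% lower). Per1 was at 320.5, 332 and 353 CPM in APB5, with a log2 fold change over IgG of 0.60 (SE 0.24, edgeR adjusted p = 0.664), and 0.36 without IgG replicate 3. Its 3 APB5 libraries lay close together, and the distance to IgG was widest to IgG replicate 3. The pericyte markers summed to 93.2, 97.2 and 108 CPM in IgG and 116, 116 and 226 CPM in APB5, the 6 endothelial markers, led by Kdr, to 119, 134 and 171 and 179, 177 and 195 CPM and the 7 amacrine cell markers, led by Gad1, to 793, 830.4 and 838 and 852, 901 and 876 CPM. For all 3 sums each APB5 library lay above each IgG library. The pericyte sum was mostly Rgs5, at 67.16, 71.43 and 74.0 CPM in IgG and 88.95, 87.9 and 164.3 CPM in APB5. The median log2 fold change of the 6 pericyte markers was 0.65, and −0.010 without APB5 replicate 3. Whether pericytes were lost was not tested by these sums. The part of these markers in the values was not tested.

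Arntl, Npas2 and Per2 differed mainly by APB5 replicate 3. Arntl, the core activator, had 114, 111 and 55.5 CPM in the APB5 libraries and 114, 109.8 and 101 CPM in the IgG libraries. APB5 replicates 1 and 2 lay within or just above the IgG range, and replicate 3 far below it. The log2 fold change of −0.20 (SE 0.26) became 0.065 without that library. Npas2, the alternative partner of ARNTL, had 3.23, 3.27 and 5.53 CPM in APB5 and 2.94, 2.98 and 3.02 CPM in IgG, and Per2 had 24.1, 26.5 and 39.8 CPM in APB5 and 23.4, 23.5 and 19.8 CPM in IgG. Their log2 fold changes of 0.43 and 0.44 became 0.13 and 0.19 without APB5 replicate 3, a fit in which the groups also differ fully in Xist. With Xist as a covariate in the fit of 12 libraries they were larger, 0.65 for Npas2 (edgeR adjusted p = 0.102) and 0.67 for Per2 (edgeR adjusted p = 0.0315, which passed, where 1284 of 21228 genes passed upward), and Arntl was at −0.63 (edgeR adjusted p = 0.0798). Rod and microglial marker sums moved with these values in that library, as given above, and their part in the result was not tested. Cry1, Per3, Ciart, Nr1d1, Nr1d2 and Dbp had log2 fold changes between −0.14 and 0.021, with overlapping groups. Without IgG replicate 3, those of Ciart, Nr1d1 and Nr1d2 were 0.43, 0.24 and −0.28, none of them passing by edgeR.

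The effect of APB5 in minocycline-treated mice was read from APB5+Mino against IgG+Mino, where more members were without overlap than in the comparisons above. The 3 APB5+Mino libraries are shared with the comparison that chose the genes, so these values do not stand as independent support for the fall of Ciart. The groups did not overlap for 8 of the 10 members, 4 higher and 4 lower in APB5+Mino, where 35.2% of all genes did not overlap (18.0% higher and 17.2% lower). By edgeR, 4 members reached an adjusted p of at most 0.05, Per2 upward and Ciart, Per1 and Nr1d1 downward, where 8.09% of the 20049 genes tested did (4.8% higher and 3.28% lower), and 1, Ciart, was called with the fold threshold, where 1.23% were (0.349% lower). DESeq2 passed 6 members and called 1, where it passed 3503 and called 283 of the 20049 genes. In edgeR fits without 1 library, 0 of 20489 genes passed without APB5+Mino replicate 2, and 5 of 20469 without IgG+Mino replicate 3. By edgeR 0 members passed among the libraries low in Xist only, in a fit of all 12 libraries or with Xist as a covariate, where 2, 0 and 0 of all genes did, with log2 fold changes of the same sign for these 4.

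Ciart, the repressor of the ARNTL pair, had 46.2, 71.7 and 49.2 CPM in the IgG+Mino libraries and 25.2, 25.5 and 20.9 CPM in the APB5+Mino libraries. Every APB5+Mino library lay below every IgG+Mino library, and the means stood at a ratio of 0.428. The log2 fold change was −1.23 (SE 0.17, edgeR adjusted p = 0.0125). Among libraries low in Xist only, 2 of APB5+Mino against 3 of IgG+Mino, it was −1.14 with an adjusted p of 0.0863 by edgeR. That fit only leaves out APB5+Mino replicate 3, and in it the call ended while the size held. It ended in the same way in a fit of all 12 libraries and without IgG+Mino replicate 3 or APB5+Mino replicate 2, with log2 fold changes of −1.01 to −1.34 over the fits that left out 1 library.

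The Period genes went in different directions. Per1 had 280.5, 415 and 373 CPM in IgG+Mino and 209, 247 and 206 CPM in APB5+Mino. It was lower in all 3 APB5+Mino libraries, by a log2 fold change of −0.69 (SE 0.14, edgeR adjusted p = 0.0274). Per2 had 25.2, 25.6 and 26.2 CPM in IgG+Mino and 32.5, 38.8 and 37.2 CPM in APB5+Mino. It was higher in all 3, by 0.49 (SE 0.10, edgeR adjusted p = 0.0245), with an SD of 0.487 CPM in IgG+Mino. Per3, whose promoter holds the D-boxes shown above, had 91.1, 131 and 94.9 CPM in IgG+Mino and 139, 150.3 and 139 CPM in APB5+Mino. It too stood higher in all 3, at a log2 fold change of 0.43 (SE 0.13) that did not pass (edgeR adjusted p = 0.0733).

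Nr1d1, which encodes REV-ERBα, had 261, 325 and 277 CPM in IgG+Mino and 206, 223 and 207 CPM in APB5+Mino, which gives a log2 fold change of −0.44 (SE 0.10, edgeR adjusted p = 0.0333). Its relative Nr1d2 had 181, 238 and 214 and 230.2, 249.8 and 236 CPM, with overlapping groups and a log2 fold change of 0.17 (SE 0.11). The 2 REV-ERB genes thus had values of opposite sign, only the first of which passed. Dbp had 165, 141 and 133 CPM in IgG+Mino and 124, 118 and 117 CPM in APB5+Mino, lower in all 3 but short of the threshold at −0.29 (SE 0.10, edgeR adjusted p = 0.0816). Cry1, the repressor that REV-ERB proteins hold down, had 58.1, 47.1 and 49.1 CPM in IgG+Mino and 73.3, 60.8 and 59.2 CPM in APB5+Mino, higher in all 3 at 0.32 (SE 0.12, edgeR adjusted p = 0.110). Arntl itself had 118, 116 and 120.1 and 108, 119 and 106 CPM, with overlapping groups and a log2 fold change of −0.088 (SE 0.079), and Npas2 3.20, 3.80 and 3.51 and 4.20, 3.96 and 3.94 CPM with a log2 fold change of 0.20 (SE 0.15).

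Cell type markers moved along with these groups. The 7 rod markers summed to 27810, 25540 and 27380 CPM in IgG+Mino and to 21480, 20790 and 21360 CPM in APB5+Mino, with Gnat1 the most abundant. The 6 Müller glia markers, led by Glul, summed to 3727, 3742 and 3849 and 3134, 2999 and 3027 CPM, and the 10 microglia and macrophage markers, led by C1qa, to 28.3, 31.8 and 29.5 and 18.2, 15.5 and 17.9 CPM. The 7 cone markers summed to 1439, 1341 and 1200 and 1166, 1157 and 1165 CPM, the 6 ganglion cell markers to 1095, 1025 and 1175 and 914, 818 and 846 CPM, the 6 pericyte markers to 74.5, 82.0 and 84.2 and 67.6, 71.0 and 63.8 CPM and the 5 red blood cell markers to 203, 172 and 179 and 109.7, 168 and 112 CPM. For all 7 sums every APB5+Mino library lay below every IgG+Mino library, and no marker of these lists was at 0 counts in any library. Their part in the clock gene differences was not tested.

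**Figure D2:**
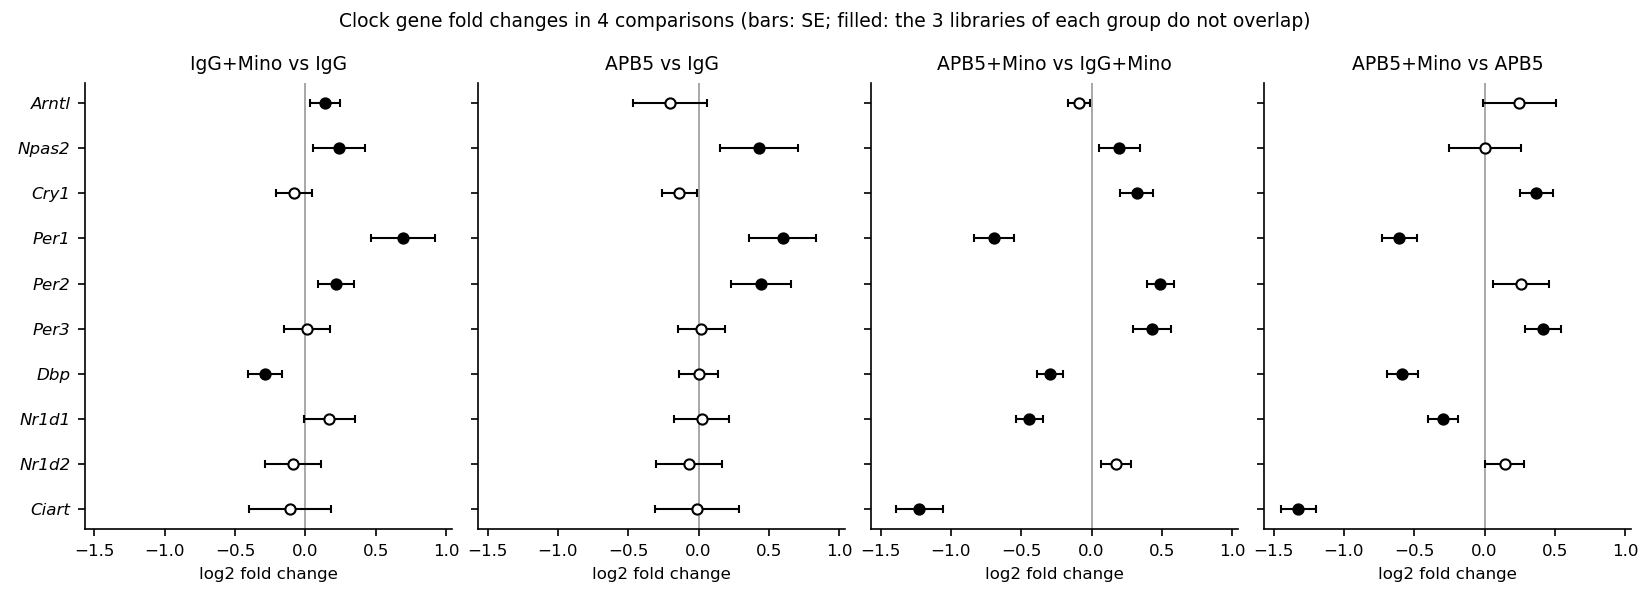
Log2 fold change of each clock gene (horizontal axis) in 4 comparisons, with bars for the SE of edgeR's fit and filled symbols for genes without overlap between the groups. Ciart stood at −1.23 and −1.32 in the comparisons of APB5+Mino with IgG+Mino and with APB5, and at −0.11 and −0.012 in the other 2.

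APB5+Mino against APB5, the effect of minocycline after APB5, was the comparison that chose the genes, and its values are given as a description. Ciart was at 66.1, 56.3 and 56.6 CPM in the APB5 libraries against 25.2, 25.5 and 20.9 CPM in the APB5+Mino libraries. These are 2 tight and separate groups, at a ratio of 0.400 and a log2 fold change of −1.32 (SE 0.12). Within the libraries low in Xist, 2 of each group, the log2 fold change was −1.27, and without APB5 replicate 3 it was −1.36. Per1 (log2 fold change −0.61), Dbp (−0.59) and Nr1d1 (−0.30) were lower in each APB5+Mino library as well, and Cry1 (0.37) and Per3 (0.41) higher, where 46.5% of all genes did not overlap (23.2% higher and 23.3% lower). Arntl (0.25), Npas2 (0.0012), Per2 (0.26) and Nr1d2 (0.14) overlapped. These 4 depended on APB5 replicate 3, without which they were −0.020, 0.30, 0.51 and 0.032. In that fit 6 members, Per2 among them, reached an adjusted p of at most 0.05, as did 5484 of 20621 genes. By edgeR 1 member, Ciart, was called, where 1.66% of the 20281 genes tested were (0.838% higher and 0.819% lower), and 3 passed the adjusted p alone, where 4.82% did (2.79% higher and 2.03% lower). DESeq2 passed 6 and called 1, where it passed 5089 and called 1548 of 20281 genes. With the replicate number as a block 0 members and 0 genes passed by edgeR. The edgeR call of Ciart also ended without APB5 replicate 1 and without each of the APB5+Mino libraries. The sums of the microglia and macrophage markers were 55.4, 50.0 and 398 CPM in APB5 and those in APB5+Mino given above. The pericyte sums given above and the endothelial sums, 110.4, 115 and 98.2 CPM in APB5+Mino, were each lower in all 3 APB5+Mino libraries than in APB5. So were the sums of the Müller glia markers, at 4446, 4072 and 7182 CPM in APB5, of the amacrine cell markers, at 799, 765 and 782 CPM in APB5+Mino, and of the 6 pigment epithelium markers, led by Ttr, at 71.4, 74.6 and 505 CPM in APB5 and 36.5, 27.6 and 49.3 CPM in APB5+Mino. The 6 bipolar cell markers, led by Prkca, were higher in all 3, at 944, 1074 and 989 CPM in APB5 and 1106, 1259 and 1203 CPM in APB5+Mino. The part of these markers was not tested.

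The interaction term asked whether minocycline acted differently after APB5 than after IgG. It contains IgG+Mino minus IgG, groups that differ fully in Xist, so sex enters the term and cannot be told apart from the treatments. With Xist as a covariate, Per1 was at −1.30 (edgeR adjusted p = 0.0635), Ciart at −0.97 (0.202) and Cry1 at 0.62 (0.102). No member passed in that fit, where 979 of 21228 genes did. The values that follow are without it. Per1 had the largest value among the members, −1.28 (SE 0.30, edgeR adjusted p = 0.132). Its level was higher with minocycline after IgG and lower after APB5, without overlap of the groups in either. Ciart had −1.20 (SE 0.38, edgeR adjusted p = 0.181) and Cry1 0.46 (SE 0.17, edgeR adjusted p = 0.228). No member was called by edgeR, where 0.0141% of 21228 genes were, and these 3 had an unadjusted p under 0.05, as 3640 of all genes had. DESeq2 called Per1 (adjusted p = 0.00562), where it called 387 of the 21228 genes. Without IgG replicate 3 edgeR called Ciart (−1.65, adjusted p = 0.0497), where 34 of 21733 genes were called. The term contains the difference between APB5+Mino and APB5 by which the genes were chosen, so its values, calls included, do not stand as independent support for Ciart or the other members.

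The Arntl arm (Arntl, Npas2 and Cry1) was set against the Per arm (Per1, Per2, Per3, Ciart, Nr1d1, Nr1d2 and Dbp) by the arm gap, the mean log2 CPM of the first minus that of the second in a library. The gap is a difference on the log2 scale and carries no test, since its genes were chosen. It was −2.15, −2.09 and −2.21 in the IgG libraries, −2.01, −2.35 and −2.12 in IgG+Mino, −2.26, −2.26 and −2.45 in APB5 and −1.70, −1.89 and −1.82 in APB5+Mino. The 3 APB5+Mino libraries had the highest gaps of the 12, with a mean of −1.80 ± 0.093 (SD, n = 3) where the other means were −2.15 ± 0.061 (IgG), −2.16 ± 0.17 (IgG+Mino) and −2.32 ± 0.11 (APB5). Against APB5 the gap of APB5+Mino was higher by 0.52, made up of 0.25 from a higher Arntl arm and −0.27 from a lower Per arm. Against IgG+Mino it was higher by 0.36, of 0.15 and −0.21. The Per arm contains Ciart, whose fall chose the genes and whose value was the largest in size in that arm, −1.23 against IgG+Mino. The others there were Per1 at −0.69, Nr1d1 at −0.44 and Dbp at −0.29, with Per2 at 0.49, Per3 at 0.43 and Nr1d2 at 0.17. The gap without Ciart alone is not given here, so the lower Per arm does not stand apart from the choice. The arms did not move as blocks. In both comparisons the log2 fold changes of Per2 and Per3, which belong to the Per arm, were above 0, and the groups of Arntl overlapped. With Ciart, Cry1 and Nr1d2 left out of the arms, the 2 differences fell to 0.34 and 0.15.

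Other genes of the clock were read from a list of 19. Between APB5+Mino and IgG+Mino, by edgeR, 1 passed the adjusted p upward and 1 downward, where 4.8% and 3.28% of all genes did, and the median log2 fold change was −0.042 against −0.0092 over all genes tested. Arntl2, a second activator of the ARNTL kind, rose from 3.06, 2.85 and 2.48 to 3.93, 4.68 and 4.56 CPM (log2 fold change 0.64, edgeR adjusted p = 0.0442). Nfil3, a repressor that competes with DBP at D-boxes, fell from 23.3, 27.3 and 25.7 to 17.3, 18.5 and 16.2 CPM (−0.56, edgeR adjusted p = 0.0218). Neither pair of groups overlapped. Both passes ended without APB5+Mino replicate 2, where by edgeR 0 of 20489 genes passed, the output and retinal genes below included. By edgeR 0 of the 19, and 0 of the output and retinal genes below, passed in this comparison among the libraries low in Xist only, in a fit of all 12 libraries or with Xist as a covariate. The partner gene Clock had 135 ± 25.8 and 159.5 ± 24.8 CPM (SD, n = 3 each), and Tef and Hlf, activators of the Dbp family, stood at 0.13 and 0.079 on the log2 scale. By edgeR against APB5, 0 of the 19 passed upward in APB5+Mino and 1, Nfil3, downward at −0.96, where 2.79% and 2.03% of all genes did. DESeq2 passed 1 upward and 3 downward, where it passed 2401 and 2688 of 20281 genes, and called 1 lower, where it called 1013. Without APB5 replicate 3 edgeR passed 1 upward and 4 downward, where 2730 and 2754 of 20621 genes passed, and in a fit of all 12 libraries 0 and 3, where 1908 and 2555 of 21228 did. With the replicate block 0 genes of any kind passed. In APB5 against IgG, in IgG+Mino against IgG and in the interaction, 0 of the 19 passed by edgeR, with 0, 1 and 5 at an unadjusted p under 0.05, where 1472 of 20350, 1686 of 20143 and 3640 of 21228 genes were. DESeq2 passed 0, 0 and 1 of them, and 98, 55 and 689 of all genes. The largest value in IgG+Mino against IgG was that of Rora, an activator that competes with REV-ERB, at 0.53 (SE 0.22). It was 0.00012 with Xist as a covariate, a fit that leans on replicate 3 of APB5 and of APB5+Mino. Rora had 217.5, 248 and 111 CPM in APB5 and 230, 308 and 246 CPM in APB5+Mino. Replicate 3 was thus the lowest in APB5 but not in APB5+Mino, and the part of sex was not tested.

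Of 9 output genes of the clock, 1 passed upward and 2 downward by edgeR in APB5+Mino against IgG+Mino, where 4.8% and 3.28% of all genes did. Sik1, a kinase known to restrain the resetting of the clock by light, had 38.0, 55.8 and 60.0 CPM in IgG+Mino and 25.7, 28.4 and 25.4 CPM in APB5+Mino, which gives a log2 fold change of −0.95 (SE 0.16, edgeR adjusted p = 0.0173). Noct, a rhythmic phosphatase, fell by a log2 fold change of −0.32 (edgeR adjusted p = 0.0479) and Lonrf3 rose by 0.51 (edgeR adjusted p = 0.0261). By edgeR against APB5, 0 passed upward and 1, Sik1, was called lower, where 0.819% of all genes were called lower. Sik1 had 68.2, 57.9 and 61.0 CPM in APB5 and a log2 fold change of −1.24. Its call ended when any 1 of the APB5+Mino libraries was left out, where edgeR called 0 genes. DESeq2 passed 3 downward and called 2 of them, where it passed 2688 and called 1013 of 20281 genes lower, and edgeR did the same in number in a fit of all 12 libraries, where 2555 passed and 1142 were called of 21228. In the other 2 comparisons 0 of 9 passed by edgeR, with 3 at an unadjusted p under 0.05 in each, where 1472 of 20350 and 1686 of 20143 genes were. The largest value in both was that of the cell cycle inhibitor Cdkn1a, 1.94 in APB5 against IgG, where APB5 replicate 3 had 141 CPM and DESeq2 called it among 87 of 20350 genes, and 0.55 in IgG+Mino against IgG. The first was 0.86 without APB5 replicate 3 and 2.39 with Xist as a covariate (edgeR adjusted p = 0.0077, where 1284 of 21228 genes passed upward), and the second 1.56 with Xist as a covariate (edgeR adjusted p = 0.624). In the interaction 0 of 9 passed by edgeR and 3 had an unadjusted p under 0.05, as 3640 of 21228 genes had, and 2 passed by DESeq2, as 689 of all genes did.

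Of 8 retinal genes of daily rhythm and light signalling, 7 were tested, and Asmt, the last enzyme of melatonin synthesis, was too low. In the 5 comparisons as set up here edgeR passed only Pdc, the photoreceptor protein phosducin, which fell from 2365, 2205 and 2347 CPM in IgG+Mino to 1796, 1502 and 1608 CPM in APB5+Mino (−0.50, edgeR adjusted p = 0.0190) beside the lower rod marker sum. By edgeR, 3 of the 7 had an unadjusted p under 0.05 in APB5+Mino against IgG+Mino, where 5868 of 20049 genes had, and 1 in APB5+Mino against APB5, where 7282 of 20281 had. In the latter it was 5 by DESeq2, where 7536 genes had such a p, and 4 with the replicate block, where 7125 had. DESeq2 passed 1 in APB5+Mino against APB5, where it passed 5089 of 20281 genes, and 1 in APB5+Mino against IgG+Mino, where it passed 3503 of 20049. Other edgeR fits passed other counts. In APB5+Mino against APB5 these were 1 downward in a fit of all 12 libraries, 1 upward and 1 downward without APB5 replicate 3, and 2 upward and 1 downward with Xist as a covariate, where 4463, 5484 and 5584 of all genes passed. In APB5 against IgG 1 passed downward with Xist as a covariate, where 1480 of all genes did. Adcy1, the neuronal adenylyl cyclase, had the largest value in IgG+Mino against IgG, 0.70 (SE 0.19, edgeR adjusted p = 0.585), and 0.061 with Xist as a covariate. It had 352, 411 and 158 CPM in APB5 and 455, 604 and 479 CPM in APB5+Mino. As for Rora, replicate 3 was the lowest in APB5 only, so that fit does not show the part of sex. Drd4, the dopamine receptor of photoreceptors, had 142 ± 27.1, 156 ± 28.6, 112 ± 36.4 and 162 ± 13.6 CPM in IgG, IgG+Mino, APB5 and APB5+Mino (SD, n = 3 each).

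Genes that light or neuronal activity induces quickly were read from a list of 10. Of these, edgeR called 6 lower and 1 higher in APB5+Mino against IgG+Mino, where 0.349% and 0.878% of all genes were, and DESeq2 5 and 1, where it called 84 and 199 of 20049 genes, with a median log2 fold change of −1.45. Egr1, a transcription factor, had 88.6, 469 and 151 CPM in IgG+Mino and 26.3, 28.8 and 36.2 CPM in APB5+Mino (log2 fold change −2.96, SE 0.53, edgeR adjusted p = 0.0196). Fos had 49.1, 184 and 88.7 and 28.6, 33.4 and 29.3 CPM, a log2 fold change of −1.82 (edgeR adjusted p = 0.0292). Both were low and even across the APB5+Mino libraries and spread widely in every other group. Junb, Nr4a1, Dusp1 and Egr2 were also called lower, at −1.66, −2.06, −1.01 and −2.14, the last a gene at 0.143, 0.0585 and 0.113 CPM in APB5+Mino. Npas4, which answers to neuronal calcium and not to growth factors, rose instead, from 13.8, 14.2 and 11.8 to 25.8, 31.8 and 34.5 CPM (1.21, edgeR adjusted p = 0.0114). Fosb (−1.24), Gem (−0.61) and Crem (0.37) did not pass (edgeR adjusted p = 0.0980, 0.0528 and 0.111). In the libraries low in Xist only, edgeR called 0 of the 10, with 9 at an unadjusted p under 0.05, where 3831 of 20453 genes were, 2 against 3 libraries and a median of −1.43. It also called 0 in a fit of all 12 libraries and with Xist as a covariate. Without APB5+Mino replicate 2 it called 0 of 20489 genes, and without IgG+Mino replicate 3 it called 5 of 20469.

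In the comparison that chose the members, APB5+Mino against APB5, edgeR called 4 of the 10 induced genes lower (Junb, Egr1, Nr4a1 and Dusp1) and 0 higher, where 0.819% and 0.838% of all genes were, with a median log2 fold change of −2.57. DESeq2 called 6 lower, where it called 1013 of 20281 genes lower, and edgeR called 7 lower in a fit of all 12 libraries, where 1142 of 21228 were, and 0 with the replicate block, where 0 genes were. The APB5 libraries had 267, 139 and 1088 CPM of Egr1 and 307, 152 and 402 CPM of Nr4a1, against 58.9, 58.4 and 59.2 CPM of Nr4a1 in APB5+Mino. Without APB5 replicate 3, 7 were called lower and 1 higher, where 521 and 402 of 20621 genes were, and the median was −1.59. Without APB5 replicate 1, edgeR called 1 of 20887 genes. When any 1 of the APB5+Mino libraries was left out, it called 0 genes. In APB5 against IgG 0 were called by edgeR or DESeq2, with 2 at an unadjusted p under 0.05 by each, and the values of Egr2 (3.87) and Fosb (2.09) fell to 1.20 and 0.17 without APB5 replicate 3, which had 153 CPM of Fosb. The median of the 10 was 0.73, and 0.17 without APB5 replicate 3 with 0 genes at an unadjusted p under 0.05. Without IgG replicate 3 it was 1.62 with 6 such genes, with the replicate block 0.82 with 7, and with Xist as a covariate 1.16 with 5, of which 2 were called higher. In that last fit 4992 of 21228 genes had an unadjusted p under 0.05 and 1059 were called higher, and the fits before it had 1185 of 20736, 1209 of 20975 and 1365 of 20350 genes at such a p. In IgG+Mino against IgG 0 passed and 0 had an unadjusted p under 0.05 by either tool. The IgG libraries had 91.1, 99.7 and 712 CPM of Egr1, replicate 3 far above the others. In the interaction 0 passed by edgeR, with 8 at an unadjusted p under 0.05, among them Egr1 (−3.68, edgeR adjusted p = 0.204), and 3 passed by DESeq2, where 3640 and 689 of 21228 genes did. The part of these genes in the levels of the clock genes was not tested.

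**Figure D3:**
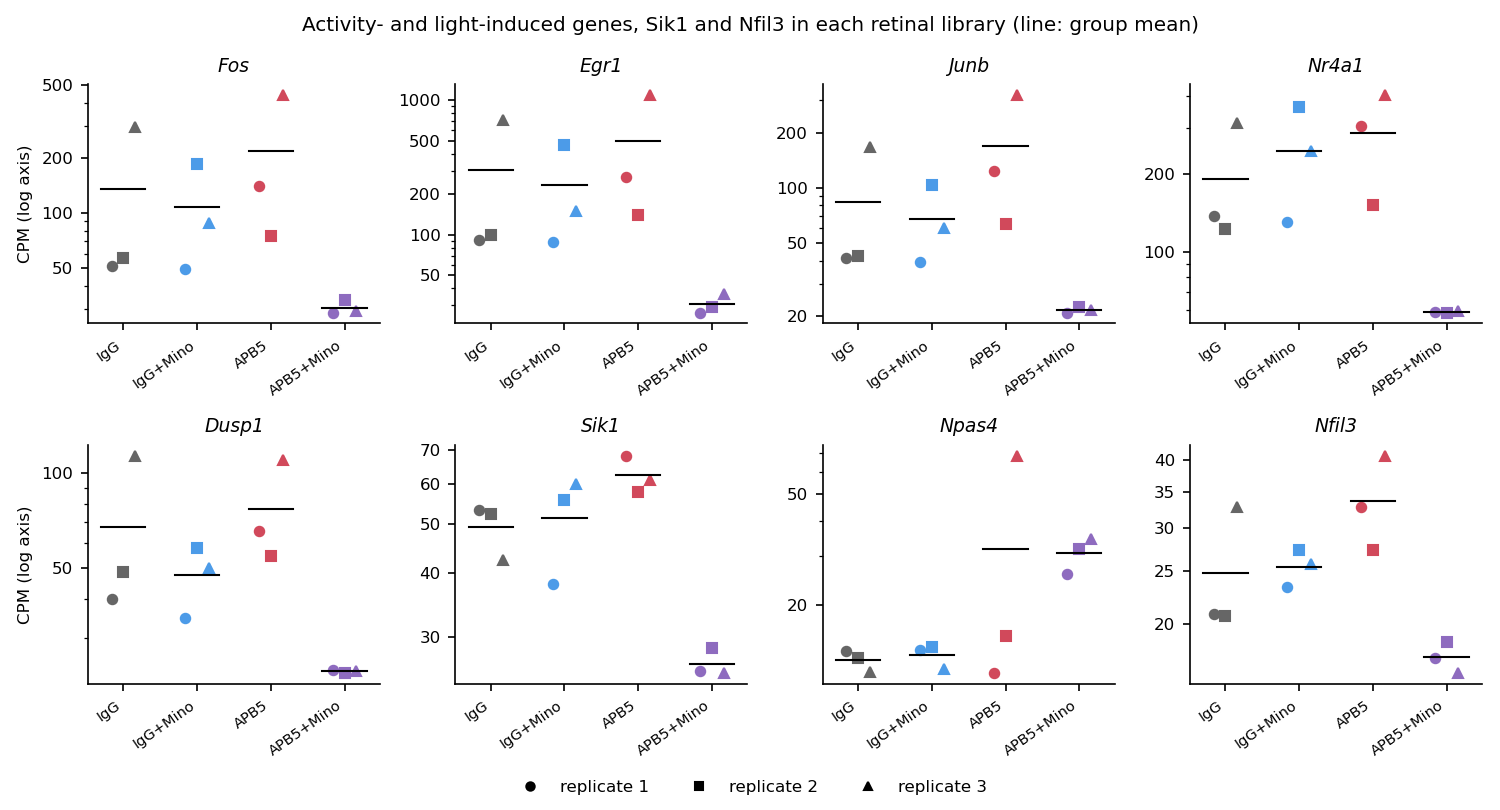
Levels of induced genes, Sik1 and Nfil3 in CPM (vertical log axes, each on its own scale) in each library of the 4 groups, with a line at the group mean. The APB5+Mino libraries lay lowest for Fos, Egr1, Junb, Nr4a1, Dusp1, Sik1 and Nfil3, and their Npas4 (25.8 to 34.5 CPM) lay above that of every IgG and IgG+Mino library (at most 14.2 CPM).

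Variation inside the groups was read from deviations of log2 CPM from the group mean, which do not use the comparison that chose the genes. IgG replicate 3 deviated most in Ciart (0.72), Per1 (−0.55), Nr1d2 (−0.49) and Nr1d1 (0.41), and APB5 replicate 3 in Arntl (−0.68), Npas2 (0.51) and Per2 (0.43). The members that deviated most thus differed between these libraries, with Per2 at −0.16 in the first and Ciart at −0.072 in the second. In IgG replicate 3, with 93.0 CPM of Ciart where replicates 1 and 2 had 47.2 and 41.1, Arntl was at 101 CPM, close to the other IgG libraries. In APB5 replicate 3, with its low Arntl, Ciart was at 56.6 CPM, as in replicate 2.

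**Figure D4:**
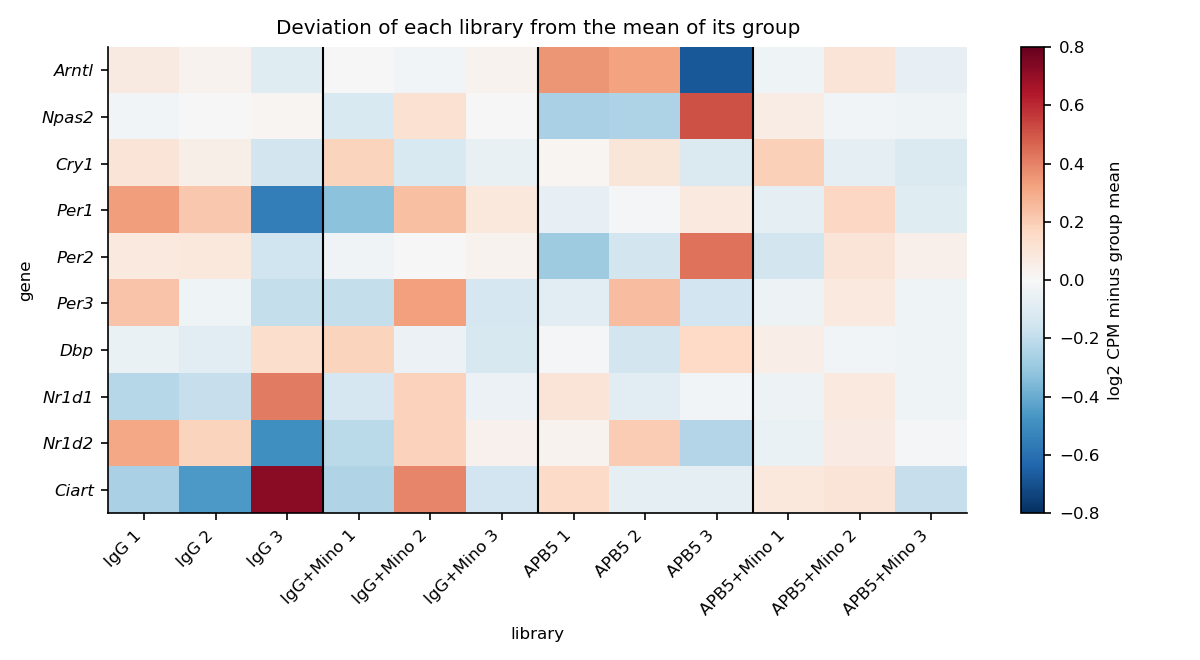
Deviation of each library from the mean of its group for each clock gene, in log2 CPM (colour scale from −0.8 to 0.8; rows are genes, columns are libraries, and vertical lines part the groups). The strongest colours are Ciart of IgG replicate 3, above its group, and Arntl of APB5 replicate 3, below its group.

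The deviations of each member were correlated with those of Arntl over the 12 libraries, 9 relations in all, with p from an exact permutation of libraries within groups (two-sided). None passed after Benjamini-Hochberg adjustment, with a smallest adjusted p of 0.178. Npas2 ran against Arntl (r = −0.949, exact permutation p = 0.0594, Spearman coefficient = −0.706, p = 0.0633), but r was −0.742 without the 2 libraries farthest from the median in Arntl, APB5 replicates 3 and 1, and −0.232 without APB5 replicate 3 alone. Per2 had r = −0.787 (Spearman coefficient = −0.203; exact permutation p = 0.299 and 0.639), −0.0463 without those 2 libraries, and 0.676 without APB5 replicate 3, so that its relation rested on that library. Nr1d2 had r = 0.505 (exact permutation p = 0.0293; Spearman coefficient = 0.671, p = 0.0394) and 0.569 without the 2 libraries, and Dbp had r = −0.59 (exact permutation p = 0.0494; Spearman coefficient = −0.524, p = 0.145) and −0.586. Their adjusted p was 0.178 each for r, and 0.285 and 0.307 for the Spearman coefficient. The other 5 had r between −0.0655 and 0.378 and a Spearman coefficient between −0.28 and 0.42, with exact permutation p of 0.137 or more and adjusted p of 0.307 or more.

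**Figure D5:**
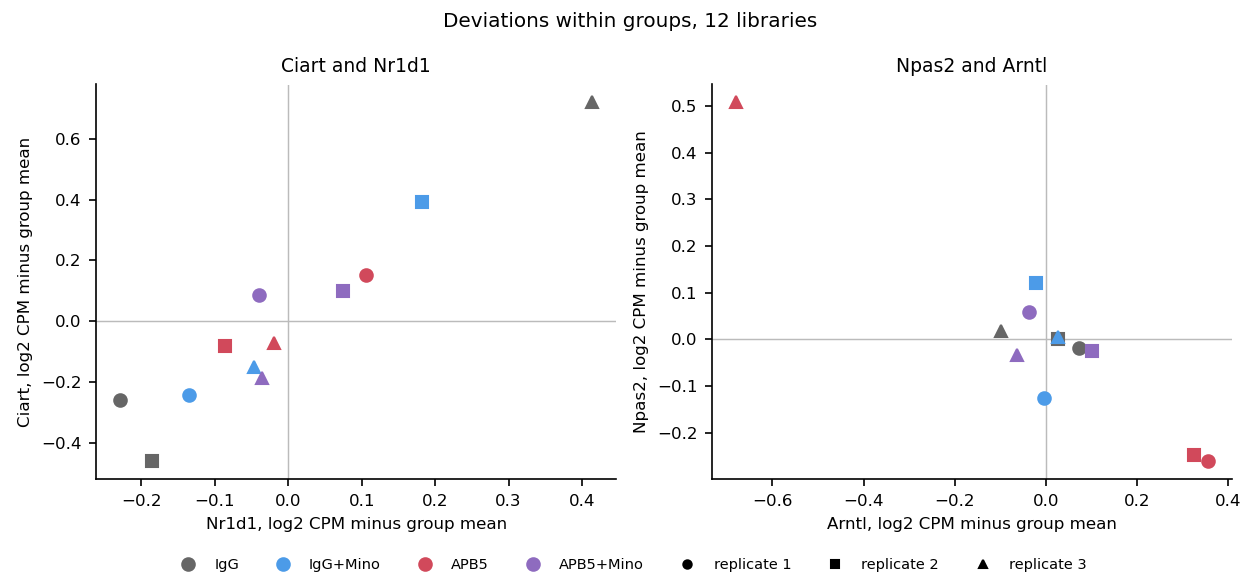
Deviations from group means in log2 CPM, for Ciart (vertical) against Nr1d1 (horizontal) at left and for Npas2 (vertical) against Arntl (horizontal) at right, 1 symbol for each of 12 libraries. Ciart and Nr1d1 deviated together (r = 0.956), and the relation of Npas2 to Arntl (r = −0.949) was set mainly by APB5 replicate 3 at the upper left.

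The genes most like 3 of the members were ranked by r of these deviations over 12 libraries, among 15812 genes, as a description. The gene most like Ciart was Nr1d1, another member (r = 0.956), and Rbm14, Zfp503 and LOC115489466 were also among the 5 most alike (r = 0.94 to 0.935), and the most opposed were Zfp780b, Nol6, S100pbp, Fam133b and Sgsh (r = −0.958 to −0.94). Among the 5 genes most like Arntl were Map4k3, Nt5e, Ccn4 and Crx (r = 0.993 to 0.987), and the most opposed were Plin2, Mxra8, C1qb, Arpc1b and C1qa (r = −0.997 to −0.992). Crx is the photoreceptor transcription factor and C1qa and C1qb are microglial complement genes, and the order follows APB5 replicate 3, in which rod markers were low and microglial markers high. The genes most like Dbp were Txnrd2, Reep2, Slc50a1, Plppr2 and Porcn (r = 0.986 to 0.979), and among the 5 most opposed were Rab11fip2, Rdx, Wasf3 and Gm5182 (r = −0.979 to −0.97). All points share libraries and scaling, so likeness here also holds whatever sets libraries of a group apart.

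In build GRCm39, the members lie on 7 chromosomes. Of the members described above, Ciart spans chromosome 3, 95785815 to 95789991 (minus strand), and Per1 chromosome 11, 68986035 to 69002300 (plus). Per2 spans chromosome 1, 91343700 to 91387069 (minus), Per3 chromosome 4, 151081373 to 151129140 (minus), and Nr1d1 chromosome 11, 98658752 to 98666188 (minus). Dbp spans chromosome 7, 45354512 to 45359627 (plus), and Arntl chromosome 7, 112806152 to 112914735 (plus). Exons of Nr1d1 overlap those of Thra, exons of Per3 those of Uts2 and exons of Dbp those of Sphk2 on the opposite strand, and exons of Arntl, Npas2, Per1, Per3, Ciart and Nr1d1 overlap antisense noncoding genes of the GENCODE annotation. The libraries mark strand, but whether the counting used it is not stated, so reads of such partners cannot be told apart from those of the member.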

How the data were processed

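Stranded poly-A libraries were sequenced as single reads. Per the labels, bcl2fastq 2.20 and DRAGEN were used on build mm39, and the DRAGEN version is not given in the sources used here. The deposited table holds the authors' gene counts, not normalized. Its 3 repeated columns were identical to those they repeat and were not used. A second count table with identical values was not used. The authors' tables of fold changes and p-values per gene and transcript were not used.

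Analysis used R 4.3.3, edgeR 4.0.16, DESeq2 1.42.0 and Python with scipy. Low counts were removed by filterByExpr, libraries scaled by TMM, and the groups compared fitted by edgeR's quasi-likelihood test (prior count 2) with Benjamini-Hochberg adjustment over all genes tested. The interaction used all 12 libraries. CPM were computed here. The study gives 3 mice in each group. Precision rests on 3 libraries a group, and an exact test of 3 against 3 cannot go below 0.1.

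The members and lists were chosen with earlier results of these data known. Named are the members, from the lists each gene called or else the 3 with the largest fold change at a mean of at least 1 CPM, and further list genes chosen after their values were seen. For 3 members, genes among the 5 most and 5 least alike are named. Some genes of these rankings and 1 rod marker, left out of its sum, are not reported here. Same-numbered libraries deviated weakly together in APB5+Mino against APB5 (r = 0.134, 0.182 and 0.14, and −0.157 to 0.0194 for other pairs). The numbers may thus pair them there, but the labels give no pairing. Replicate 3 was also the library high in Xist in both groups. The main fit did not use the numbers. The replicate block, in which 0 genes passed by edgeR in that comparison, is given as an alternative. Alternatives were RLE, library size, DESeq2, other filters, all libraries in a fit, a replicate block, Xist as covariate and leaving out libraries. The test was run on simulated counts first, with 200 genes changed. At 2-fold, edgeR recovered 17 of them for APB5 against IgG and 163 for IgG+Mino against IgG, and at 4-fold 189 and 200.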

Additional observations from a re-analysis of the deposited data

Results flagged for a closer look

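Per1 was singled out because its difference took opposite signs in the arms of the design, with every library of one group on one side in each. With minocycline its log2 fold change was 0.69 after IgG and −0.61 after APB5, and with APB5 it was 0.60 without minocycline and −0.69 with it. The difference itself was tested by the interaction term, −1.28, and did not pass by edgeR (adjusted p = 0.132). IgG and IgG+Mino differ fully in Xist, so sex is part of this term and of the opposite signs and cannot be told apart in them.

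Sik1 was singled out in the same way for APB5, with a log2 fold change of 0.34 without minocycline and −0.95 with it. Its interaction term did not pass by edgeR (adjusted p = 0.108) and holds the same difference in sex.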

How the results depend on the processing

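The number of members called was the same under all alternatives in APB5 against IgG and in IgG+Mino against IgG, at 0. In APB5+Mino against APB5 it was 1, and 3 without the fold threshold (4.82% of all genes), 0 with the replicate number as a block, and 0 to 1 when 1 library was left out (0 without APB5 replicate 1 and without each APB5+Mino library). In APB5+Mino against IgG+Mino it was 1, and 4 without the fold threshold (8.09% of all genes), 0 in a fit of all 12 libraries, 0 with Xist as a covariate, 0 in libraries low in Xist only and 0 to 1 when 1 library was left out (0 without IgG+Mino replicate 3, APB5+Mino replicate 2 or APB5+Mino replicate 3). In this comparison the low-Xist fit and the fit without APB5+Mino replicate 3 are the same fit. In the interaction it was 0, and 1 by DESeq2 and 0 to 1 when 1 library was left out (1 without IgG replicate 3). The low-Xist fits and the fit with replicates 1 and 2 of both groups were chosen after seeing the data, and the causes of these changes were not tested. The replicate block moved no other count of members called. In APB5+Mino against IgG+Mino, whose numbers did not pair the libraries (r = 0.2, 0.105 and −0.0241), 3 members passed the adjusted p upward and 4 downward with the block, and 1 and 3 without it, where those of all 20049 genes went from 963 upward and 658 downward to 2091 and 1954. Scaling by library size only shifted the median log2 fold change of all genes to −0.11 in APB5+Mino against APB5.

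The difference in arm gap between APB5+Mino and APB5 was 0.52, and 0.34 with Arntl and Npas2 against Per1, Per2, Per3, Dbp and Nr1d1, and 0.65 with medians over an arm. Between APB5+Mino and IgG+Mino it was 0.36, and 0.15 with the smaller arms. The correlation of Per1 with Arntl was 0.041, and −0.082 with deviations from the mean of all libraries. When 1 library was left out it ranged from −0.13 to 0.719, that of Ciart from −0.476 to 0.18, that of Nr1d1 from −0.499 to 0.12 and that of Per2 from −0.891 to 0.676.

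Values near 0 changed sign. In APB5 against IgG, with replicates 1 and 2 of both groups the log2 fold change of Arntl was 0.0091, of Per3 −0.0028, of Ciart 0.47 and of Dbp −0.017, and with Xist as a covariate that of Per3 was −0.072 and of Nr1d1 −0.035. Ciart was 0.037 by library size only and 0.083 with the replicate block. Dbp was −0.0017 with RLE scaling and by DESeq2, −0.0037 without a count filter, −0.0056 in a fit of all 12 libraries and −0.0025 with the replicate block. Leaving out 1 library gave ranges of −0.37 to 0.065 for Arntl, −0.11 to 0.14 for Per3, −0.22 to 0.43 for Ciart, −0.091 to 0.24 for Nr1d1, −0.28 to 0.095 for Nr1d2 and −0.082 to 0.070 for Dbp. In IgG+Mino against IgG, Arntl was −0.37 and Per3 −0.11 with Xist as a covariate, Per3 was −0.078 by library size only, and leaving out 1 library gave −0.17 to 0.13 for Per3, −0.33 to 0.34 for Ciart and −0.30 to 0.066 for Nr1d2. In APB5+Mino against IgG+Mino, Arntl was 0.12 with Xist as a covariate. In the interaction, Per2 was −0.30 with Xist as a covariate, and leaving out 1 library gave −0.17 to 0.29 for Arntl, −0.36 to 0.053 for Npas2 and −0.076 to 0.28 for Per2. In APB5+Mino against APB5 no called value changed sign.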
